A study of Mus musculus with 12 samples.

Results

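The 9 genes Lhfpl3, Pcdh15, Dscam, Nlgn1, Csmd1, Opcml, Lrrtm3, Megf11 and Luzp2 are long genes of oligodendrocyte progenitor cells, most of which code for adhesion or synaptic organising proteins. They were taken by name from the 6 peak lists of the histone mark H4K8ac, acetylation of lysine 8 of histone H4, and all 9 were present, among 23433 genes named in these lists. The members held 398 of the 269580 listed peaks. H4K8ac was mapped by chromatin immunoprecipitation and sequencing in primary forebrain progenitors, sorted by means of the Pdgfra H2BEGFP reporter, a nuclear fluorescent protein under the control of the progenitor gene Pdgfra. The neonatal group was taken at postnatal day 5 (3 libraries) and the adult group at postnatal day 60 (3 libraries). Both groups carried the same reporter genotype, the labels call the replicates biological, and no further treatment is given. A reporter that marks every Pdgfra-expressing cell can also mark other cells that express the gene or that have kept the long-lived nuclear protein, and the libraries average over the sorted cells.

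Histone acetylation loosens the contact between histones and DNA, and H4K8ac lies at promoters and enhancers of transcribed genes. Oligodendrocyte progenitors persist throughout life, receive synapses from neurons and space themselves by contact with their neighbours. Neuroligin 1 (Nlgn1) and LRRTM3 (Lrrtm3) are postsynaptic partners of neurexins. OPCML (Opcml) is a lipid-anchored immunoglobulin protein of the IgLON family, DSCAM (Dscam) an immunoglobulin protein of neurite self-avoidance, protocadherin 15 (Pcdh15) a cadherin best known from the tip links of hair cells, MEGF11 (Megf11) a protein with EGF-like repeats that spaces retinal neurons, and CSMD1 (Csmd1) a membrane protein with complement-control domains. Lhfpl3 codes for a tetraspan protein of the LHFPL family and Luzp2 for a leucine zipper protein. Neither of these last genes is an adhesion gene by its annotation, so the name of the set holds for 7 of the 9 members at most.

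The members were 162 to 1643 kb long in the RefSeq annotation, with a median of 584 kb against 6.01 kb over 49554 genes. The lists differed in length before any gene was considered. The neonatal lists held 9097, 31189 and 7353 peaks (replicates 1, 2 and 3) and the adult lists 72278, 72661 and 77002. Introns held 6.67%, 15.5% and 4.64% of the neonatal peaks and 33.5%, 33.9% and 36.1% of the adult peaks. Neonatal replicate 2 stood apart from the other neonatal libraries, and sequencing depth is unknown because the lists give no read counts. Of 10 progenitor markers, including Pdgfra, Cspg4 and Sox10, 9 or 10 had a promoter peak in each neonatal library and 8 to 10 in each adult library. Of 10 oligodendrocyte markers, including Mog, Mag and Mobp, 1, 3 and 1 had a promoter peak in the neonatal libraries and all 10 in each adult library. Neuronal markers had 0 to 6 of 10 and 4 or 5 of 10, astrocyte markers 1 to 8 and 3 to 6, microglial markers 0 and 1, and fibroblast or pericyte markers 0 to 4 and 1 or 2, neonatal and adult respectively. The part of these markers in the differences below was not tested. Values at equal list length are given for intronic peaks, covered gene bodies and promoter peaks by class. Marker counts, covered lengths at 5′ ends, blocks and joined regions were read from the full lists only.

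The RefSeq promoter windows, 300 bases from 250 before to 50 after a transcript start on GRCm38.p6, were found for 7 of the 9 members (8 windows, 2 of them for Nlgn1). 4 windows are printed, 3 at 5′ ends with a peak in most libraries and 1 at a start inside a gene with peaks in adults, and they were chosen for these peaks. They are written 5′ to 3′ on the strand of the gene, with every CANNTG, the E-box of basic helix-loop-helix factors, in capitals. The Dscam window lies at chr16:97170686-97170985 (minus strand), at an annotated start, and peaks overlapped it in 3 of 3 neonatal and 3 of 3 adult libraries. The Opcml window lies at chr9:27791049-27791348 (plus strand) and was overlapped in 2 of 3 and 3 of 3 libraries. The Lhfpl3 window lies at chr5:22745804-22746103 (plus strand), also in 2 of 3 and 3 of 3. The Pcdh15 window lies at chr10:73821617-73821916 (plus strand), 725 kb inside the gene at the start of a shorter transcript, and was overlapped in 0 of 3 neonatal and 3 of 3 adult libraries. Of the windows not printed, that of Luzp2 was overlapped in 1 neonatal and 3 adult libraries, that of Lrrtm3 in 0 and 1, that at the 5′ end of Nlgn1 in 1 and 2 and that 179 kb inside Nlgn1 in 0 and 1, the last over 3 bp.
Dscam: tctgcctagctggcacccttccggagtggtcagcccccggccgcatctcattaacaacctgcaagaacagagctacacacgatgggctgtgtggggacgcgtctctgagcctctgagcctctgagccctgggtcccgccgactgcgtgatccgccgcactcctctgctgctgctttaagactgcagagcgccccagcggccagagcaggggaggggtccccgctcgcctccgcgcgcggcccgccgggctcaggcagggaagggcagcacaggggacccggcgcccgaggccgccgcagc
Opcml: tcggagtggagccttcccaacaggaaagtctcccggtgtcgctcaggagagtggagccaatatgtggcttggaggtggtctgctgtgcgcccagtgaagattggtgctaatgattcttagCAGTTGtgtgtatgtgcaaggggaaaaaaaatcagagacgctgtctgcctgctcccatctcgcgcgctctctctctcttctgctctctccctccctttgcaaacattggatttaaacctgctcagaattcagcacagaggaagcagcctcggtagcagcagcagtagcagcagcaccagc
Lhfpl3: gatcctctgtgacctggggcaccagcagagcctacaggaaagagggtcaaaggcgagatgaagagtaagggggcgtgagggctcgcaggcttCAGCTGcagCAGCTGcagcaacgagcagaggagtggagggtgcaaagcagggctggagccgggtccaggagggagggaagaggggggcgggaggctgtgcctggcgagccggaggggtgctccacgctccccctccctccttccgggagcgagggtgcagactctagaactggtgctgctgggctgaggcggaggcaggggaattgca
Pcdh15: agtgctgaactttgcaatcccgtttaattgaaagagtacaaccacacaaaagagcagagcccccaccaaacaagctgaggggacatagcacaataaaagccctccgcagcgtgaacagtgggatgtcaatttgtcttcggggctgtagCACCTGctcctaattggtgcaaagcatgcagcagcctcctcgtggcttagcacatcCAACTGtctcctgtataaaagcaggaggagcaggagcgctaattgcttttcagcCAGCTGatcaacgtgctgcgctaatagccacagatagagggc

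CANNTG stood in 5 of the 8 member windows, against 72.3% of all 32851 promoter windows. It was found 3 times in the Pcdh15 window, 2 times in that of Lhfpl3, once in that of Opcml and in no place in that of Dscam. CAGCTG, one of its forms, was in 3 of the 8 windows (16.3% of all windows). CAGATG with its reverse complement CATCTG was in 0 (17.2%). ACAAT or ATTGT, the core of SOX factor sites, was in 2 (31% of all). TGACGTCA, the cAMP response element, was in 0 (1.79%), and TATAAA or TTTATA was in 1, that of Pcdh15 (13.6%). All were searched on both strands and only CAGCTG and CAGATG overlap another motif by construction. The Dscam window had 70% G and C with 26 CG pairs and that of Lhfpl3 66% with 12, against a median of 52.7% and 7 over all windows. That of Opcml had 53.7% with 9 pairs and that of Pcdh15 50.7% with 8. The windows not printed had 41.3% (Luzp2), 48.7% (Lrrtm3) and 44.7% and 55.7% (Nlgn1), and the median over the 8 member windows was 52.2%.

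Intronic peaks assigned to the 9 members numbered 1, 22 and 2 in the neonatal libraries and 67, 77 and 95 in the adult libraries. In 6 of the 9 genes (Lhfpl3, Pcdh15, Dscam, Nlgn1, Opcml and Lrrtm3) every adult library had more intronic peaks than every neonatal library. The same held for 45.9% of the 7499 genes with an intronic peak and for 59.5% of the 1395 such genes of at least 100 kb, and the reverse pattern for 2 of the 7499. The median difference on the log2(number + 1) scale was 2.33 over the members, 1.66 over the long genes and 1 over all genes. With 3 libraries a group the exact two-sided permutation test cannot go below p = 0.1. These 6 genes reached that value, and after Benjamini-Hochberg adjustment over all genes the exact permutation p was 0.218, so no member passed a threshold of 0.05. When each list was reduced to its 7353 strongest peaks, the length of the shortest list, 0 of the 9 genes kept this separation. Over all genes the reduced lists held only 392, 146 and 341 intronic peaks in the neonatal and 287, 525 and 451 in the adult libraries. With so few intronic peaks left, a separation in 9 genes could hardly appear, and no conclusion is drawn from its absence. The share of other genes that kept the separation at that length was not computed.

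Opcml carried the most intronic peaks of the set. It had 0, 3 and 0 in the neonatal libraries and 32, 36 and 50 in the adult libraries (means 1 ± 1.73 and 39.3 ± 9.45, SD, n = 3 each). The groups lay far apart, and the difference was 4.64 on the log2(number + 1) scale. Cell adhesion genes of the postsynaptic side had fewer peaks with the same separation. Nlgn1 had 0, 0 and 0 in the neonatal against 3, 4 and 8 in the adult libraries. Lrrtm3 had 0, 0 and 0 against 6, 5 and 5. Lrrtm3 is nested inside another gene, and all 16 of its intronic peaks were annotated to introns of that gene (ENSMUSG00000060843, which is Ctnna3, the gene of alpha-T-catenin) rather than of its own. Of these 16, 8 lay within the Lrrtm3 body and 8 upstream of it.

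Pcdh15 had 0, 3 and 1 intronic peaks in the neonatal libraries and 9, 12 and 9 in the adult libraries. Dscam had 0, 1 and 0 against 5, 6 and 5, and all 17 of them over the 6 libraries were annotated to its first intron. This holds for peaks assigned to Dscam by name, as 116 of the 140 peaks over its body were assigned to other genes. Lhfpl3 had 0, 0 and 0 against 2, 2 and 3. None of these groups overlapped. Of all 264 intronic peaks assigned to the members by name, 73 were annotated to a first intron. Over all genes, first introns held 37.4% to 41.4% of the intronic peaks of a library.

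Megf11 did not separate the ages. It had 1, 14 and 1 intronic peaks in the neonatal libraries and 9, 11 and 12 in the adult libraries (exact permutation p = 0.4, exact permutation p adjusted over all genes 0.6). The 14 of neonatal replicate 2 exceeded every adult library, whereas the other neonatal libraries had 1 each. Csmd1 had 0, 1 and 0 against 1, 1 and 2 (exact permutation p = 0.3), at 1643 kb the longest member with among the fewest peaks. Luzp2 had none in 5 libraries and 1 in adult replicate 3 (exact permutation p = 1). Without neonatal replicate 2 the adult libraries lay above the neonatal libraries in 8 of the 9 genes, Luzp2 being the exception; with that library left out the same held for 55.4% of 7068 genes and 70.9% of the 1328 of at least 100 kb.

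**Figure D1:**
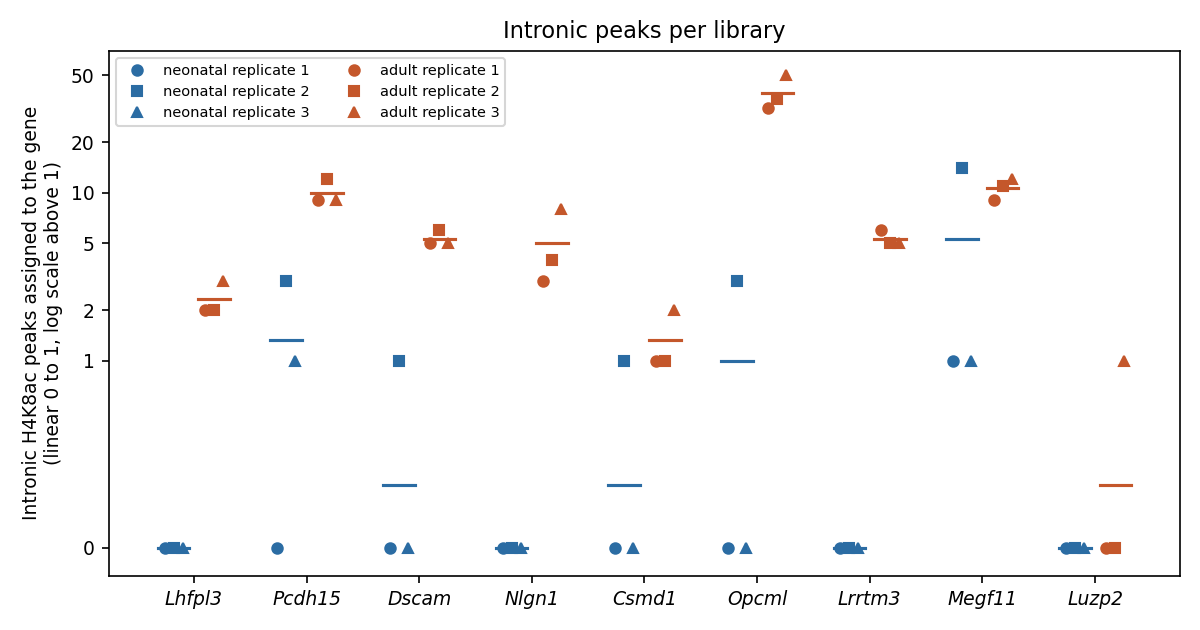
Intronic H4K8ac peaks assigned to each member, one symbol per library and a line at the mean of each group of 3; the vertical axis is linear from 0 to 1 and logarithmic above. Opcml reached 32 to 50 peaks in the adult libraries, and Megf11 was the one member in which a neonatal library (14 peaks) exceeded all adult libraries.

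The members did not take a larger share of the intronic peaks in adults. They held 0.165%, 0.455% and 0.587% of the intronic peaks of the neonatal lists and 0.277%, 0.312% and 0.341% of those of the adult lists. The exact 95% binomial intervals, which cover counting error only, were 0.00417% to 0.914%, 0.285% to 0.688% and 0.0711% to 2.1% for the neonatal lists. They were 0.215% to 0.352%, 0.246% to 0.39% and 0.276% to 0.417% for the adult lists. The adult shares lay within the range of the neonatal shares. All genes of at least 100 kb together held 22.1%, 30.3% and 19.1% of the neonatal and 39%, 39.2% and 40.7% of the adult intronic peaks. The intronic peaks of the members were of ordinary height: in the adult libraries their median fold enrichment was 4.08, 3.97 and 3.76, against 4.34, 4.25 and 3.76 over all intronic peaks. Of the members' intronic peaks 0, 0 and 2 were among the strongest 7353 of the adult lists. Over all genes 287 of 24184, 525 of 24664 and 451 of 27836 adult intronic peaks were, so few intronic peaks of any gene ranked there.

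The lists assign each peak to the gene with the nearest transcription start, which matters for genes of this length. By position, 740 peaks overlapped the bodies of the 9 genes, and 371 of them (50.1%) were assigned to another gene, mostly an unnamed gene model nested in an intron. The share assigned elsewhere was 87.8% in Lhfpl3, 82.9% in Dscam, 69.5% in Nlgn1, 68.8% in Csmd1, 50.5% in Pcdh15, 20.8% in Lrrtm3 and 15.7% in Opcml. It was 0 in Megf11 and Luzp2. In Dscam a single nested model, Gm32509, took 5, 10 and 3 neonatal and 20, 26 and 38 adult peaks, more than were assigned to Dscam itself (1, 2 and 1 within its body, and 6, 7 and 7). In Nlgn1 the model Gm6197 took 0, 0 and 0 neonatal and 14, 9 and 16 adult peaks. Counted by position, peaks of all classes over the 9 bodies numbered 17, 62 and 13 in the neonatal and 191, 201 and 256 in the adult libraries, and every adult library exceeded every neonatal library in 7 of 9 genes, against 30.7% of 19652 genes and 51.8% of the 2365 of at least 100 kb.

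The length covered by peaks does not depend on that assignment or on one broad region being called as several peaks. Peaks covered 0.0744%, 0.36% and 0.0467% of the 9 bodies in the neonatal libraries and 1.11%, 1.28% and 2.06% in the adult libraries. Every adult library exceeded every neonatal library in 8 of the 9 genes, against 64.4% of 19652 genes with a covered base and 66.5% of the 2365 of at least 100 kb. The exact two-sided permutation p was 0.1 for these 8 genes and, as an exact permutation p adjusted over all genes, 0.155. The median difference on the log2(bp + 100) scale was 2.81 over the members, 2.28 over long genes and 1.75 over all genes. Over all genes of at least 100 kb the covered share was 0.0951%, 0.427% and 0.072% in the neonatal and 1.79%, 1.95% and 2.86% in the adult libraries, which was above the members' share in each library. The median over single genes went the other way in adults, at 1.31%, 1.63% and 2.23% for the members and 0.661%, 0.633% and 0.896% for the long genes. In the neonatal libraries it was 0.0563%, 0.204% and 0.0264% for the members and 0, 0.342% and 0 for the long genes. It was thus higher for the members in neonatal replicates 1 and 3 also.

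Dscam had the largest covered share of the members in each adult library. Peaks covered 0.271%, 1.25% and 0.231% of it in the neonatal and 2.39%, 2.88% and 4.53% in the adult libraries. Opcml, second by the adult mean, had 0.0318%, 0.204% and 0 against 1.73%, 2.29% and 3.69%, a 32.7-fold ratio of the mean covered lengths. Lrrtm3 had 0, 0.177% and 0 against 2.22%, 1.77% and 3.42%. The groups did not overlap in any of the 3, and adult replicate 3 was the highest library in each.

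Nlgn1 had 0.0182%, 0.142% and 0 against 1.22%, 1.3% and 2.2%, a 29.4-fold ratio of mean covered lengths. Pcdh15 had 0, 0.0954% and 0.01% against 0.887%, 0.935% and 1.52%, a 31.7-fold ratio. Lhfpl3 had 0.16%, 0.684% and 0.127% against 1.31%, 1.63% and 2.23%, a smaller ratio of 5.33. The groups did not overlap in any of these genes, and the neonatal side of these ratios rests on a few peaks.

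Csmd1 and Luzp2 were the most sparsely covered members in adults. Csmd1 had 0.0563%, 0.166% and 0.0264% in the neonatal and 0.25%, 0.269% and 0.359% in the adult libraries. Luzp2 had 0.119%, 0.287% and 0.0925% against 0.375%, 0.514% and 0.669%. The ratios of their mean covered lengths were 3.52 and 3.13. Megf11 had 0.309%, 1.81% and 0.119% against 1.85%, 1.78% and 3.52% and was the one gene whose groups overlapped (exact permutation p = 0.2).

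**Figure D2:**
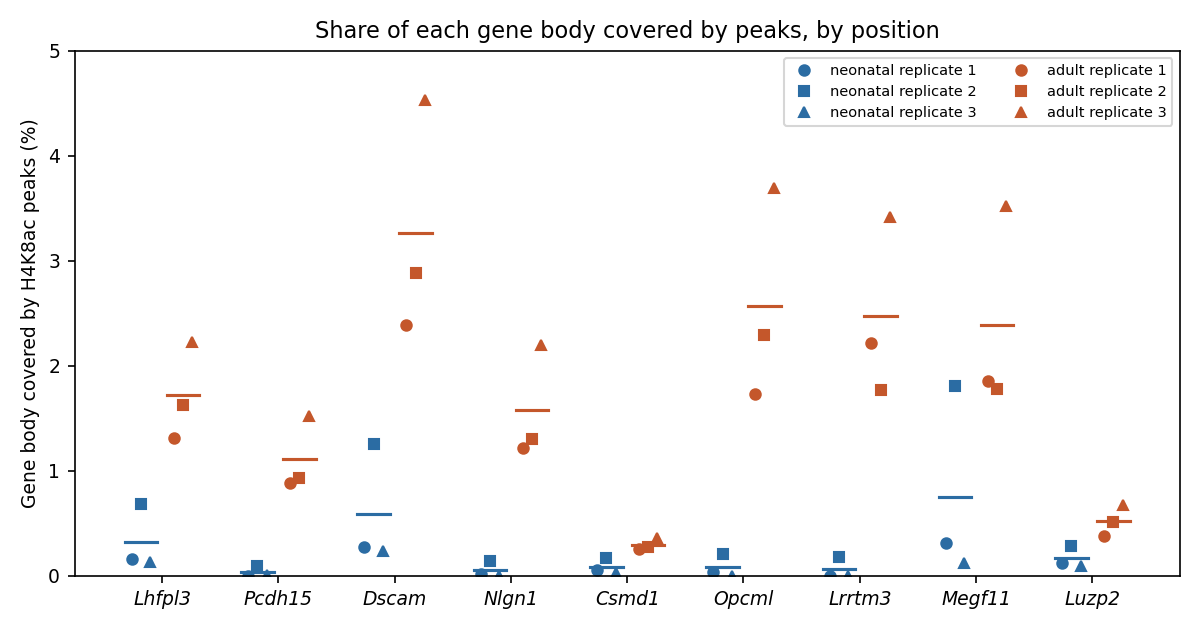
Percent of each gene body covered by H4K8ac peaks, by position and whatever gene the list assigns; one symbol per library and a line at the mean of each group of 3. In 8 of the 9 genes the adult libraries lie above all neonatal libraries; in Megf11 neonatal replicate 2 (1.81%) lies above adult replicate 2 (1.78%).

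List length bears directly on these values. Restricted to 7353 peaks a library, the strongest ones, the covered length separated the ages in 1 of the 9 genes, Opcml. Its body was then covered over 361, 0 and 0 bp in the neonatal libraries and over 2751, 3351 and 9481 bp in the adult libraries. At that length Lhfpl3, Csmd1 and Megf11 went the other way, with every neonatal library above every adult library (exact permutation p = 0.1 for each). The shares of other genes with these patterns at 7353 peaks were not computed. The adult lists were also reduced to 31189 peaks, the length of neonatal replicate 2, in a comparison chosen after the data were seen and with that library alone on the neonatal side. Every adult library then had more covered length than neonatal replicate 2 in 6 of the 9 genes (Pcdh15, Dscam, Nlgn1, Opcml, Lrrtm3 and Luzp2) and less in 0. Among 17897 genes 55.9% had more and 19.5% less, and among 2281 genes of at least 100 kb 55% had more and 29.2% less. Over the 9 bodies the covered length was 26224 bp in neonatal replicate 2 and 43314, 53019 and 88871 bp in the adult libraries. The number of intronic peaks at equal length was 22 in neonatal replicate 2 and 13, 18 and 28 in the adult libraries, with Megf11 giving 14 of the 22 and Opcml 7, 9 and 14 of the adult peaks.

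At the 5′ ends of Lhfpl3, Pcdh15, Lrrtm3 and Luzp2 the length covered by peaks was greater in every adult than in every neonatal library, 4 of 9 members against 54.4% of 2125 protein-coding genes of at least 100 kb with an assigned peak. At the other 5 the ages overlapped. A peak lay within 3000 bp of the RefSeq 5′ end of 7, 9 and 4 members in the neonatal libraries and of all 9 in each adult library. Over the 2125 long genes the same held for 46.7%, 79.7% and 41.7% of genes in the neonatal and 79.2%, 73.4% and 75.4% in the adult libraries. Dscam, Csmd1, Megf11 and Luzp2 had such a peak in all 6 libraries, 4 of 9 members against 33.7% of the long genes. By the promoter class of the lists, the members with a promoter peak numbered 6, 9 and 4 in the neonatal and 8, 9 and 8 in the adult libraries. The same 4 genes had one in all 6 libraries (21.5% of the 18548 genes with any promoter peak), and 0 of 9 had one in 3 adult and 0 neonatal libraries (12.1%). In the strongest 7353 peaks the counts turned to 6, 4 and 4 in the neonatal and 2, 3 and 2 in the adult libraries. Promoter counts of other genes at that length were not computed.

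The 5′ peak of Dscam was the one member peak at a 5′ end that ranked among the 7353 strongest of all 6 libraries. Its fold enrichment was 4.56, 16.3 and 6.12 in the neonatal and 13.7, 9.57 and 12.2 in the adult libraries. The values of the ages overlapped. It spanned up to chr16:97170012-97171200 over the start of the gene and includes the GC-rich window printed above. Folds are the authors' values for each peak and are compared between libraries here only as a description.

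At the start of Luzp2 (chr7:54835163-54837570) the peak was broader in adults. It covered 517, 1277 and 401 bp in the neonatal and 1645, 2228 and 2408 bp in the adult libraries. The fold enrichment was 4.94, 8.97 and 3.22 against 6.49, 10.2 and 9.39. The lengths did not overlap and the folds did. At the start of Megf11 (chr9:64385676-64387017) the order was mixed, with 181, 1342 and 235 bp against 891, 366 and 305 bp, and neonatal replicate 2 was the broadest. At the start of Csmd1 (chr8:17534750-17535768) the peak covered 978, 966 and 175 bp against 1016, 520 and 257 bp, with fold enrichments of 4.54, 7.52 and 4.55 against 5.39, 3.83 and 2.35.

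The 5′ end of Opcml (chr9:27790705-27791888) had peaks with folds of 4.95 and 5.83 in neonatal replicates 1 and 2, none in replicate 3, and 5.78, 3.47 and 4.86 in the adult libraries. That of Nlgn1 (chr3:26331233-26332153) had 3.86 and 5.97 in neonatal replicates 1 and 2, none in replicate 3, and 4.63, 3.64 and 3.69 in adults. In both genes the folds of the called peaks overlapped between ages, and a library without a peak has no fold. At Lhfpl3 the fold was 5.5 and 8.11 in neonatal replicates 1 and 2 and 4.84, 7.73 and 9.72 in adults. By gene name Lhfpl3 had a promoter peak in only 1 adult library, because in the other two the peaks at its 5′ end were assigned to the neighbouring A930003O13Rik.

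Pcdh15 and Lrrtm3 showed their 5′ ends mainly in adults. Around the 5′ end of Pcdh15 the peaks covered 0, 271 and 0 bp in the neonatal and 1775, 1049 and 2106 bp in the adult libraries. Around that of Lrrtm3 they covered 0, 287 and 0 bp against 1504, 1061 and 1989 bp. In both genes neonatal replicate 2 was the one neonatal library with a peak.

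The lists name 14 further starts inside 7 of the genes, at least 10 kb from the 5′ end, and 5 of them, in Opcml, Pcdh15, Megf11 and Nlgn1, had a peak within 3000 bp in any library. At these 5 the covered length was greater in every adult than in every neonatal library, 5 of 14 starts (35.7%) against 32.1% of 2845 such starts in genes of at least 100 kb. The share in the members was thus near that in long genes. The 9 starts without a peak lie in Csmd1, Dscam, Lhfpl3, Megf11, Opcml and Pcdh15. The internal start of Opcml lies 612 kb into the gene (chr9:28401832-28407267). Peaks there covered 188, 409 and 0 bp in the neonatal and 3077, 3689 and 4129 bp in the adult libraries. The strongest had folds of 4.42 and 3.68 in neonatal replicates 1 and 2 and 17.7, 13.2 and 12.2 in adults, where single peaks reached 2751, 3351 and 2903 bp and were among the 7353 strongest of each list. The 5′ end of the same gene covered 173, 1125 and 0 bp against 725, 772 and 1037 bp, with overlapping groups.

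The internal start of Pcdh15, 726 kb into the gene (chr10:73821612-73824037) and including the window printed above, had no neonatal peak and 1491, 1205 and 2396 bp in adults. That of Megf11, 308 kb in (chr9:64691010-64695619), had no neonatal peak, also in neonatal replicate 2, and 1284, 1865 and 3705 bp in adults. Nlgn1 had 1 internal start 180 kb in (chr3:26150641-26153939), with 0, 730 and 0 bp against 2255, 2465 and 3281 bp. Another lay 199 kb in (chr3:26134693-26135767), with no neonatal peak and 722, 646 and 894 bp in adults. The starts described here were chosen because peaks were called at them. These peaks carry the class promoter in the lists, so a count of promoter peaks by class mixes them with the 5′ ends.

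**Figure D3:**
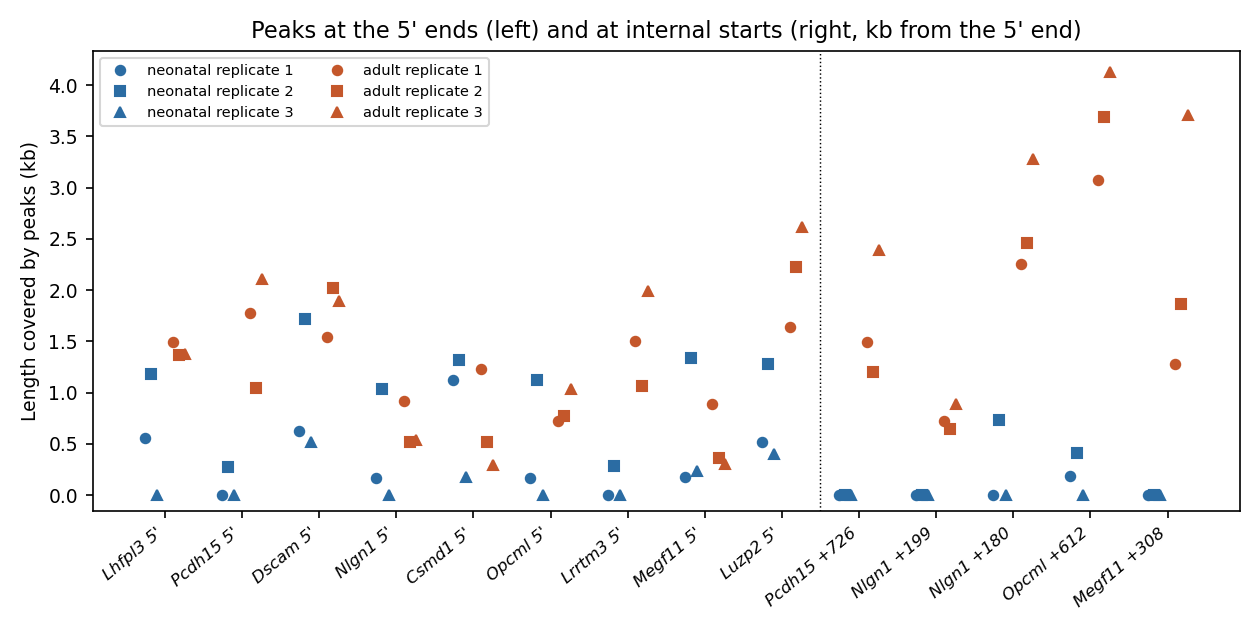
Length in kb covered by peaks within 3000 bp of the 5′ end of each member (left of the dotted line) and over the 5 internal starts that had a peak (right, labelled with the distance from the 5′ end in kb), one symbol per library. The ages overlap at the 5′ ends of Csmd1, Dscam, Megf11, Nlgn1 and Opcml; the internal starts were chosen for having peaks, so the sides of the plot are not compared.

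Peaks lay in blocks along Opcml, Dscam and Megf11, as the plot of peak starts shows. In Opcml 17, 12 and 17 adult peaks lay 540 to 660 kb from the 5′ end, around the internal start, where the neonatal libraries had 1, 4 and 0. A further 15, 16 and 21 adult peaks lay 740 to 820 kb in, where the neonatal libraries had none. In Dscam the block 400 to 420 kb from the 5′ end held 4, 7 and 3 neonatal and 6, 7 and 12 adult peaks. A block 460 to 490 kb in held 0, 2 and 0 against 7, 14 and 14. Both Dscam blocks were assigned to nested models and would be missed by its gene name.

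In Megf11 the block 210 to 230 kb from the 5′ end held 1, 8 and 1 neonatal and 2, 5 and 5 adult peaks. The block 300 to 320 kb in, at the internal start, held 0, 0 and 0 against 4, 4 and 2. The gene thus combined an interior block found at both ages with one found in adults. The limits of these blocks were drawn after the positions were seen and carry no test.

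**Figure D4:**
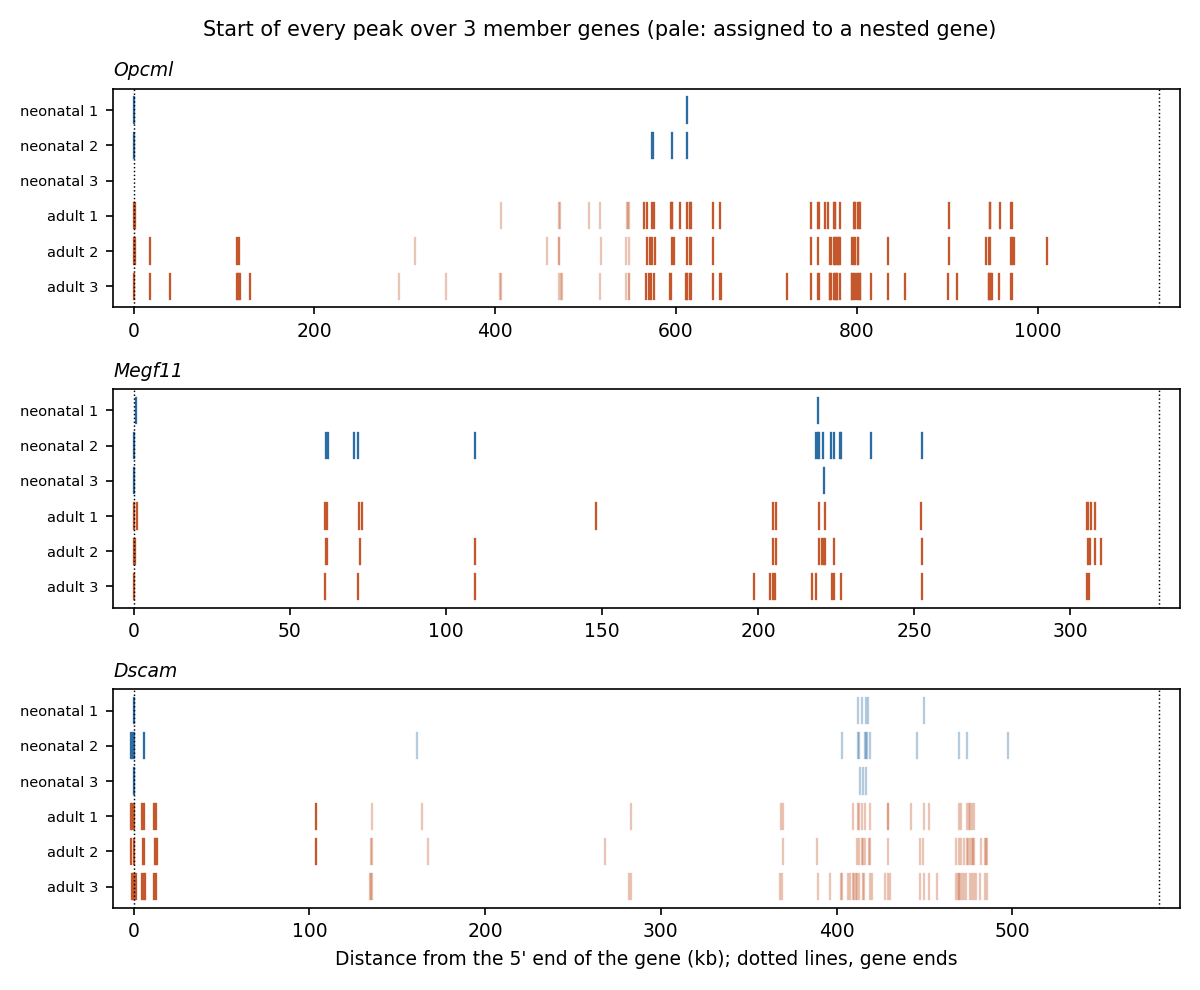
Start of every H4K8ac peak over Opcml, Megf11 and Dscam in each library, as the distance from the 5′ end in kb; blue is neonatal, orange adult, and pale marks are peaks the lists assign to another gene. The Opcml block at 740 to 820 kb and the Megf11 block at 300 to 320 kb are empty in all neonatal libraries, and the Dscam block at 400 to 420 kb is present in all 6.

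Overlapping peaks of the 6 libraries were joined into regions, of which 323 lay in the 9 genes. Of these, 55 (17%) were found in 3 adult and 0 neonatal libraries, against 20.4% of 98027 regions in all and 21.5% of those in long genes. None was found in 3 neonatal and 0 adult libraries, a pattern of 0.0398% of all regions. All 6 libraries shared 8 of the 323, and they shared 4.74% of all regions and 2.92% of those in long genes. A neonatal peak was present in 15.2% of the members' regions, 16.9% of those in long genes and 26.3% of all. Regions found in 3 adult and 0 neonatal libraries numbered 16 of 85 in Opcml, 10 of 45 in Pcdh15 and 9 of 45 in Nlgn1. They numbered 9 of 58 in Dscam and 6 of 28 in Lhfpl3.

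Megf11 again differed from the other members in these counts, with a neonatal peak in 13 of its 24 regions (54.2%). Of these, 5 had no adult peak, and all 5 were found in neonatal replicate 2 alone. That library held 16 peaks over the gene body, against 2 each in neonatal replicates 1 and 3. Among regions in introns, one in Lhfpl3 at chr5:23164390-23168434, assigned to the nested model Gm42948, was found in all 6 libraries. It covered 286, 2426 and 671 bp in the neonatal and 1043, 2478 and 2652 bp in the adult libraries. An intronic region of Pcdh15 at chr10:73824965-73827585, just beyond its internal start, was found in neonatal replicates 2 and 3 with 356 and 156 bp and in adults with 2034, 2129 and 2621 bp.

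The authors' deposited table of differential sites gives a log2 fold change for each site and lists sites with an adjusted p under 0.05. Positive values mark sites that were higher in adults: 85%, 89.4% and 96.7% of the positive sites overlapped a peak of the adult libraries and 11.7%, 27.8% and 10.3% one of the neonatal libraries. Of the sites in the authors' deposited table, 60 overlapped a peak assigned to a member, 59 of them positive and 1 negative. The raw and adjusted p in the authors' deposited table imply that 54838 sites were tested, of which 79.6% were listed with a positive value. Of the 43888 sites listed in the authors' deposited table, 99.4% were positive, so the direction in the members is that of the whole table. By position 107 listed sites lay in the 9 gene bodies, and all 107 were positive.

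Over the 60 sites of the members, the authors' deposited table has a median log2 fold change of 2.63, against 2.41 over all listed sites. For intronic sites of the authors' deposited table it was 2.77 in the members and 2.87 over all, and for promoter sites 2.01 and 1.86. The members' sites were thus close to the rest of the table. Opcml held 27 of the 60 sites. In the authors' deposited table, its site with the smallest p lay at the internal start (chr9:28403238-28403637), at 2.90 on the log2 scale (adjusted p 3.58e-08), and the largest value, in an intron, was 6.46.

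Among sites overlapping a peak assigned to each gene by name, the other sites with the smallest p in the authors' deposited table were also positive. Lhfpl3 had an intronic site at 5.85 (adjusted p 1.86e-06 in the authors' deposited table). Megf11 had one at the internal start at 3.88 (adjusted p 1.78e-07 in the authors' deposited table). Dscam had 3.91 (adjusted p 1.83e-05) and Pcdh15 3.77 (adjusted p 9.18e-06) in the authors' deposited table. For Lrrtm3 the authors' deposited table gave 3.25 (adjusted p 0.000209) and for Nlgn1 3.17 (adjusted p 1.99e-06). That Lrrtm3 site lay outside the gene (-47488 bp from its 5′ end). By position, the authors' deposited table gave a smaller p in Pcdh15 at 3.74 (adjusted p 8.01e-08) and in Nlgn1 at 3.44 (adjusted p 1.23e-07). Those sites overlapped peaks assigned to nested models.

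At the 5′ ends the authors' deposited table lists sites for only some of the members. It lists no site within 3000 bp of the 5′ end of Lhfpl3, Nlgn1, Csmd1, Opcml or Megf11. The share of other genes without such a site was not computed. At the 5′ end of Luzp2 the authors' deposited table gives 1.09 (adjusted p 0.0191), the only site of that gene, and near that of Dscam 1.25. By contrast it lists 3 sites around the 5′ end of Pcdh15 (3.54, 1.68 and 1.99) and 2 around that of Lrrtm3 (2.11 and 2.02). For Csmd1 the authors' deposited table holds no site assigned by name and 4 in the gene body, the one with the smallest p at 1.99 (adjusted p 1.61e-05). The single negative site of the members, at -1.27 (adjusted p 0.0312 in the authors' deposited table), lay upstream of Opcml (-8965 bp from its 5′ end) at chr9:27781552-27781951 in sequence classed as distal intergenic.

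**Figure D5:**
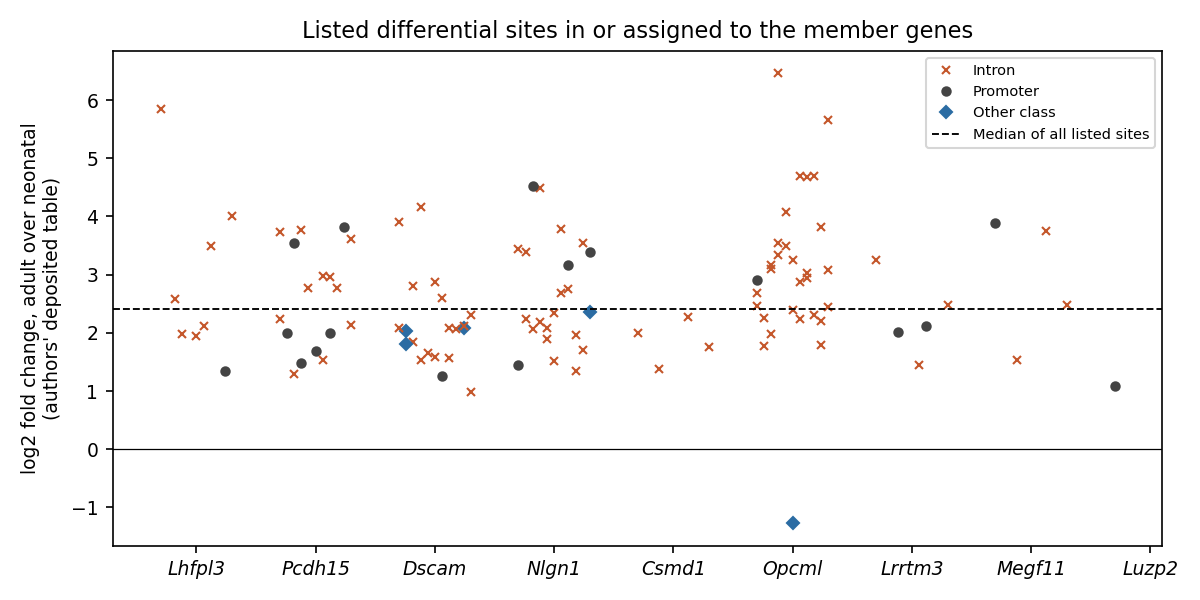
Log2 ratio, adult over neonatal, of every site in the authors' deposited table that lies in a member or overlaps a peak assigned to it, by gene and peak class; the dashed line is the median of all listed sites, 2.41. One site, upstream of Opcml, lies below 0.

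Genes related to the members by family or function, a list of 30 that includes the neurexins, the other neuroligins and LRRTMs, Megf10 and Dscaml1, were read in the same way. Of the 23 with an intronic peak, 14 had more in every adult than in every neonatal library, where 59.5% of long genes did. Of the 28 with a covered base, 21 were covered over a greater length, where 66.5% of long genes were. By assigned name, Sdk1 had 0, 1 and 0 intronic peaks against 0, 0 and 0, and Tenm2 had 0, 1 and 0 against 1, 0 and 0. By position, the body of Tenm2 was covered more in every adult library (means 0.0685% neonatal and 0.343% adult). That of Sdk1 was not (means 0.0469% and 0.0674%). Sdk2 had 0, 6 and 1 against 6, 9 and 5, with overlapping groups. All were singled out after their values were seen. A promoter peak in all 6 libraries was found for 9 of the 30, against 21.5% of the 18548 genes with any promoter peak. A promoter peak in 3 adult and 0 neonatal libraries was found for 2 of the 30, against 12.1% of those genes. None had more intronic peaks in every neonatal library. Megf10, the closest relative of Megf11, had 0, 0 and 0 intronic peaks in the neonatal and 12, 12 and 24 in the adult libraries, without the neonatal block seen in Megf11. Dscaml1, the paralog of Dscam, had 0, 8 and 0 against 14, 11 and 14. Lsamp, an IgLON gene like Opcml, had 0, 0 and 0 against 10, 7 and 13. Of the other IgLON genes in the list, Ntm had 2, 7 and 0 against 4, 7 and 7, with overlapping groups. Negr1 had no intronic peak assigned by name. By position, peaks covered a mean of 0.0384% of its body in the neonatal and 1.23% in the adult libraries, without overlap of the groups. Lhfpl2 had 0, 4 and 0 against 9, 11 and 13, and Nrxn2, a presynaptic partner of neuroligins, 0, 4 and 0 against 9, 13 and 9.

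Over the 6 libraries, the long genes whose covered percent was most like the members' median included Astn2, Nckap5, Atp8a1 and Pde4d. Likeness was the Euclidean distance on the log2(percent + 0.1) scale among 2731 genes of at least 100 kb, and the distances of these genes were 0.445, 0.45, 0.642 and 0.683 against a median of 4.07. Nlgn1 (0.699) and Opcml (1.01) lay closest to the median among the members and Csmd1 (3.82) and Dscam (3.22) farthest, which is the range in covered length described above.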

How the data were processed

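H4K8ac peaks were listed per library for 3 neonatal and 3 adult libraries. Per the submitters' processing notes, Trim Galore, Bowtie2 2.4.5, SAMtools, deepTools, MACS2, DiffBind and ChIPseeker were named with the build GRCm38; no order of use is given there. The deposited lists give a fold enrichment ratio, a −log10 p and q and a score for each peak, with its annotated class and the gene of the nearest start. The deposited differential table gives log2 fold changes and p-values from the authors' own comparison, without values per library; which step normalized them is not given in the sources used here. The labels name input libraries, which were not analysed here.

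Promoter and intronic classes were taken as listed, promoter meaning within 3000 bp of a start. Peak numbers per gene and covered bp per RefSeq (GRCm38.p6) gene body were compared with an exact two-sided permutation test over 20 arrangements, on log2(number + 1) and log2(bp + 100), with Benjamini-Hochberg adjustment over all genes. Gene symbols matched RefSeq for 81% of the genes in the lists. The functions were tested on simulated data. All members are named; relatives were named by the largest difference in intronic peaks, up to 5, and like genes by the 5 smallest distances, of which 1 is not reported here; other named features, such as internal starts and blocks, were chosen after their values were seen. The members and lists were chosen with earlier results of these data known. Alternatives were stricter q (0.005), equal list lengths, merged peaks, assignment by position, other promoter windows, a replicate block and each library left out. Python 3.11.15, numpy 2.4.6, pandas 2.3.3 and scipy 1.17.1 were used.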

Additional observations from a re-analysis of the deposited data

How the results depend on the processing

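Equal list length changed the counts of genes. When every list was held to its 7353 strongest peaks, the genes with more intronic peaks in every adult library went from 6 to 0 and those with more covered length from 8 to 1. Few intronic peaks of any gene remained at that length, so the intronic count could hardly show a separation. At that length the adult minus neonatal number of members with a promoter peak went from 2 to -2.33. The differences reversed for intronic peaks on the log2 scale to -0.33 in Pcdh15 and -0.67 in Megf11. For covered length they reversed to -3.14 in Lhfpl3, -0.45 in Pcdh15, -0.081 in Dscam, -0.47 in Nlgn1, -2.79 in Csmd1, -3.21 in Megf11 and -1.39 in Luzp2. Fewer peaks per list is the construction of that alternative, and sequencing depth is unknown. Shares over other genes at 7353 peaks were not computed. Leaving out 1 library gave 6 to 8 genes for intronic peaks and 8 to 9 for covered length, a promoter difference of 0.833 to 3.33 members and a share difference of -0.211 to 0.000341 percentage points. The differential sites in the members numbered 59 positive by assignment, 107 by position and 46 at an adjusted p under 0.005. Of 198 settings for single genes, 180 kept the direction, 9 reversed and 9 came to 0. All 9 reversals were at 7353 peaks per list, where only Opcml kept its direction. The replicate block repeats the main differences by construction, so its direction could not change. Replicate numbers did not pair the libraries: the deviations of same-numbered libraries correlated at -0.0474, 0.0448 and 0.0867 for intronic peaks and at -0.0501, 0.00184 and 0.0565 for covered length. With the replicate block, the genes higher in 3 of 3 numbered pairs were 6 for intronic peaks and 8 for covered length, and the smallest exact p that 8 sign flips allow is 0.25.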
